A study of Mus musculus with 56 samples.

Results

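The effect of a daily dose of 30 mg/kg PLX3397 in chronic epilepsy was measured in 15 mice, set against 17 epileptic mice on vehicle, out of 56 mice with hippocampal microarrays. Mice were assigned by the treatment named in the sample titles, so no measured value chose them. All 32 mice were adult males of the outbred NMRI strain in which pilocarpine, a muscarinic agonist, had induced status epilepticus that was followed by chronic epilepsy. All had also received N-methylscopolamine, which limits the peripheral effects of pilocarpine, and diazepam to end the seizure. PLX3397 or vehicle was given once daily by oral gavage, for 7 days by the labels and for 14 days by the methods of the study. The other mice of the series were 18 epileptic mice given 3 mg/kg and 6 naive mice given vehicle and never pilocarpine, and both groups are used below for side by side values. Each array held RNA from the whole hippocampus of a single hemisphere, and the CA1 pyramidal gene Fibcd1 was detected in all 15 mice at 30 mg/kg and in all 17 vehicle mice.

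PLX3397 inhibits the colony-stimulating factor 1 receptor (Csf1R), a receptor tyrosine kinase of microglia and macrophages. Signalling from this receptor, started by the ligands CSF1 and IL-34, keeps these cells alive in the adult brain, and strong inhibition removes many of them. The compound also inhibits the related kinases c-Kit and Flt3. Microglia survey the tissue through purinergic, chemokine and lectin receptors, and when they take up debris they engage Trem2 with its signalling adaptor Tyrobp, Fc receptors, complement and lysosomal enzymes.

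The targeted receptors themselves were not analysed here, because no probe was named for Csf1r or Kit and none for Flt3 passed the detection filter. The ligands of Csf1R, Csf1 and Il34, were measured. Csf1 had a log2 signal of 7.19, 7.32 and 7.42 (lowest, median and highest mouse) at 30 mg/kg, against 7.04, 7.22 and 7.48 in vehicle mice, and did not pass the test (adjusted p = 0.22). Il34 had 7.71, 8.11 and 8.34 at 30 mg/kg against 7.36, 7.89 and 8.21 in vehicle mice, a log2 fold change of 0.21 ± 0.08 (standard error) that passed at an adjusted p of 0.0454 and lost its call in 17 of the 32 fits that left out 1 mouse (adjusted p 0.0253 to 0.084), while it was 0.32 with the run of sample numbers, described below, as a block (adjusted p = 0.00164). Throughout, p-values are from limma with Benjamini-Hochberg adjustment over 9893 genes, and all signals are log2 quantile normalized probe intensities, in which a difference of 1 is a 2-fold change.

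The median raw probe signal of an array was 119.2 to 150.8 at 30 mg/kg and 109.2 to 138.3 in vehicle mice, and 44.9 to 48.8% of probes were detected at 30 mg/kg against 44.3 to 49.2% in vehicle mice. The sample numbers fall into an earlier run (up to 24) and a later run (from 33), which held the treatments unevenly, with 2 mice at 30 mg/kg and 11 vehicle mice in the earlier run, and 13 at 30 mg/kg and 6 vehicle mice in the later run. The labels do not say what the runs stand for. Each comparison of 30 mg/kg with vehicle was therefore also computed with the run as a block and within each run. These values are given where the block changed the call of a gene described or moved a value by more than 1.5 times. The mice at 3 mg/kg numbered 8 in the earlier run and 10 in the later run. For values at 3 mg/kg only the total count of genes different between doses was recomputed in these ways.

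At 30 mg/kg 1614 of 9893 genes (16.3%) were higher and 1549 (15.7%) were lower than in vehicle mice. These shares are the background for the counts of list members given below. Most of the differences were small. The median size among the called genes was 0.189 on the log2 scale and 72.59% of them were under 1.2-fold. The fit that held the run as a block found 1557 genes higher (15.7%) and 1407 lower (14.2%), and 2388 genes were called in the same direction in both fits. Scaling arrays to a common median in place of quantile normalization gave 2023 higher (20.4%) and 818 lower (8.27%), so the balance of higher and lower calls depended on the scaling. Only 8 genes were higher by at least 1.5-fold (0.0809% of the genes tested) and 20 were lower by at least 1.5-fold (0.202%). With the run as a block 27 of these 28 were called.

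**Figure D1:**
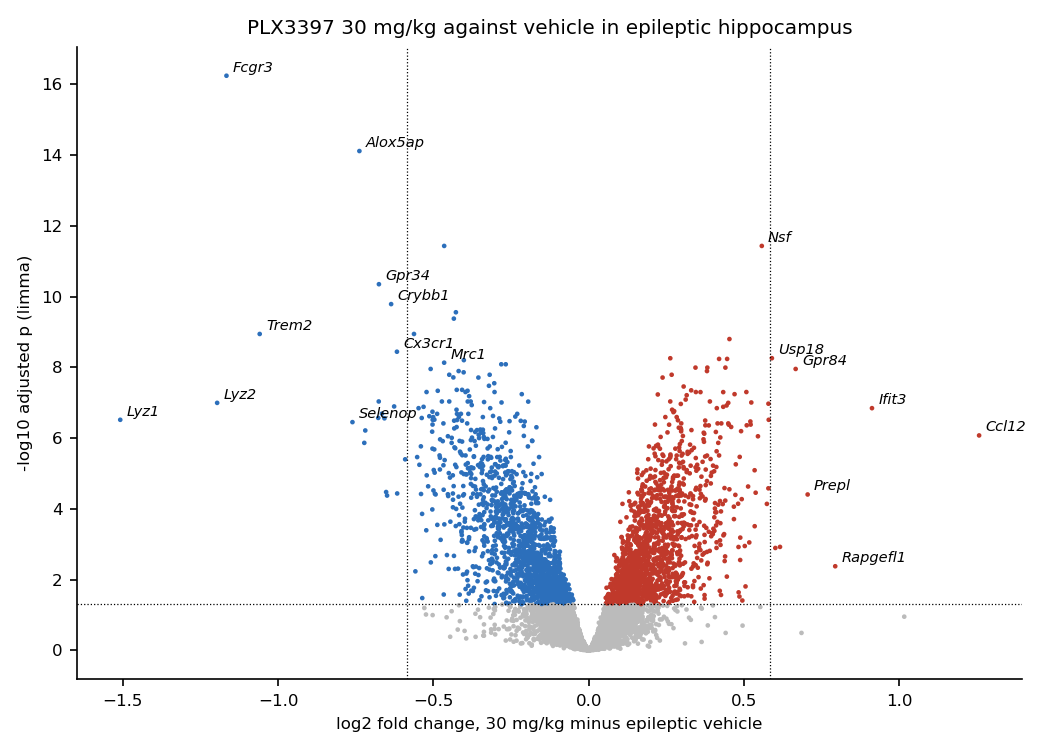
Log2 fold change of every gene tested (horizontal axis, 30 mg/kg minus epileptic vehicle) against -log10 of its adjusted p from limma (vertical axis), with 1614 higher genes in red, 1549 lower genes in blue and dotted lines at 1.5-fold and at an adjusted p of 0.05. Fcgr3, Alox5ap, Lyz1, Lyz2 and Trem2 stand apart on the lower side, and Ccl12 and Ifit3 on the higher side.

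Genes of microglia and macrophages made up 16 of the 20 largest decreases. In 4 genes no mouse at 30 mg/kg reached the lowest vehicle mouse (0.0404% of the genes tested), and these were Fcgr3, Alox5ap, Crybb1 and Mrc1. Fcgr3, a low affinity Fc receptor for IgG, had a log2 signal of 7.63, 8.07 and 8.58 (lowest, median and highest mouse) at 30 mg/kg and 8.89, 9.24 and 9.74 in vehicle mice. The 2.24-fold decrease (log2 fold change -1.17 ± 0.08, adjusted p = 5.76e-17) was the smallest adjusted p of the comparison. Naive mice had 8.13, 8.16 and 8.33, inside the range at 30 mg/kg.

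Alox5ap, which presents arachidonic acid to 5-lipoxygenase for leukotriene synthesis, had 7.89, 8.26 and 8.62 at 30 mg/kg against 8.71, 9.01 and 9.22 in vehicle mice (log2 fold change -0.74 ± 0.06, adjusted p = 7.74e-15). Crybb1, a crystallin gene that marks adult microglia in the mouse brain, had 6.95, 7.15 and 7.41 at 30 mg/kg against 7.43, 7.75 and 8.29 in vehicle mice. It was detected above background in 8 of 15 mice at 30 mg/kg and in 17 of 17 vehicle mice, so its log2 fold change of -0.64 ± 0.06 was measured partly at the floor of the array. Mrc1, the mannose receptor of perivascular macrophages, had 7.00, 7.10 and 7.28 at 30 mg/kg against 7.38, 7.58 and 7.91 in vehicle mice (log2 fold change -0.47 ± 0.05). Its highest mouse at 30 mg/kg lay below the median naive mouse, at 7.29. All values of Mrc1 at 30 mg/kg lay within the range of Crybb1 there, so the floor of the array may limit them too. In whole tissue, fewer cells of a type and less RNA per cell cannot be told apart.

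The lysozymes had the largest decreases. Lyz1 had 8.48, 9.34 and 10.99 at 30 mg/kg against 10.09, 10.70 and 12.17 in vehicle mice, a 2.84-fold decrease (adjusted p = 3.05e-07), and Lyz2 had 7.21, 7.87 and 9.08 against 8.35, 9.01 and 9.98, a 2.29-fold decrease (adjusted p = 1.01e-07). In both genes 13 of 15 mice at 30 mg/kg lay below every vehicle mouse, and mouse 6 was the highest of its group. Here and below, most genes with such counts were chosen for their change in these same mice. The share of all genes with such counts was not computed. Lyz1 and Lyz2 are similar genes side by side on chromosome 10, and cross-hybridization between their probes was not tested. Naive mice had median signals of 8.57 for Lyz1 and 7.25 for Lyz2.

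Trem2, the lipid and debris receptor of microglia, had 7.64, 8.03 and 8.83 at 30 mg/kg against 8.69, 9.09 and 10.20 in vehicle mice (log2 fold change -1.06 ± 0.12, adjusted p = 1.14e-09). Its adaptor Tyrobp had 7.83, 8.18 and 8.74 at 30 mg/kg against 8.53, 8.74 and 9.59 in vehicle mice (log2 fold change -0.68 ± 0.10). For each gene 14 of 15 treated mice lay below every vehicle mouse, the exception again being mouse 6. Of 15 measured genes of Trem2-Tyrobp signalling, 11 fell and the other 4 did not pass, with a median log2 fold change of -0.15 against 0.004 over all genes tested. They included Ms4a6d (-0.34), the phospholipase Plcg2 (-0.21) and the tyrosine kinase Btk (-0.10).

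**Figure D2:**
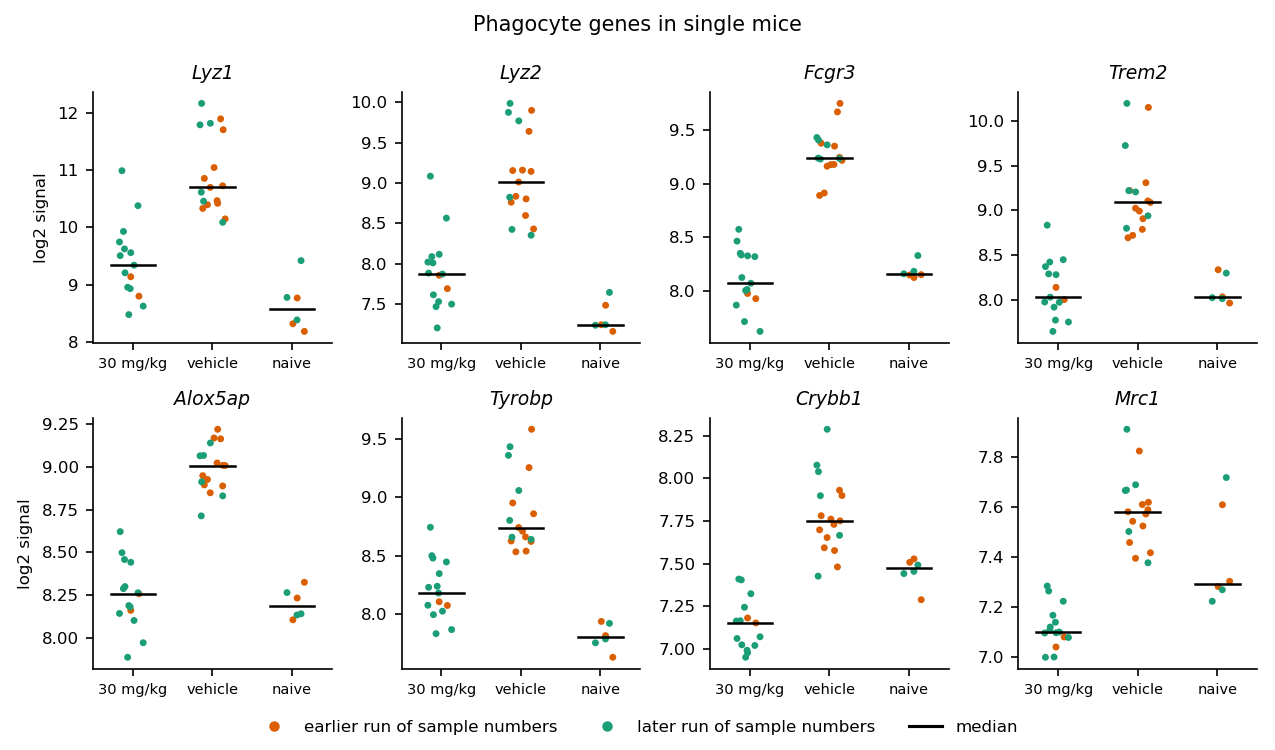
Log2 signal of 8 phagocyte genes in each mouse (points) with group medians (bars), for 15 mice at 30 mg/kg, 17 epileptic vehicle mice and 6 naive mice, coloured by run of sample numbers. Fcgr3, Alox5ap, Crybb1 and Mrc1 show no overlap between the 30 mg/kg and vehicle mice, and in Lyz1, Lyz2, Trem2 and Tyrobp 1 or 2 mice at 30 mg/kg reach into the vehicle range.

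Of 24 measured genes of homeostatic microglia, many of them surface receptors, 15 were lower, 8 did not pass and Gpr84 was higher, with a median log2 fold change of -0.24. With median scaling 13 were lower and 4 higher. Gpr34, a lysophosphatidylserine receptor, had 7.32, 7.55 and 8.20 at 30 mg/kg against 7.97, 8.30 and 8.70 in vehicle mice (log2 fold change -0.68 ± 0.07, adjusted p = 4.49e-11). Cx3cr1, the fractalkine receptor, had 8.45, 8.89 and 9.15 at 30 mg/kg against 9.10, 9.41 and 9.87 (log2 fold change -0.62 ± 0.07). In both genes at least 13 of 15 treated mice lay below every vehicle mouse. The Fc receptor-like gene Fcrls (-0.67), the purinergic receptor P2ry13 (-0.51), the TGF-beta receptor Tgfbr1 (-0.45), the P-selectin ligand Selplg (-0.44) and the lectin Siglech (-0.34) were lower as well. Tmem119, a membrane protein specific to microglia in brain, had 7.55, 8.07 and 8.43 at 30 mg/kg against 7.85, 8.37 and 8.61 in vehicle mice. Its difference passed (log2 fold change -0.22, adjusted p = 0.0406), but not with the run as a block (adjusted p = 0.0989) or with median scaling (adjusted p = 0.182), and it was lost in 16 of the 32 fits that left out 1 mouse (adjusted p up to 0.0905, without mouse 14 at 30 mg/kg).

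Of 36 genes shared by microglia and other macrophages 20 were lower, 1 was higher and 15 did not pass. The complement genes C1qa and C1qb, which tag material for phagocytosis, fell by 0.72 and 0.65 on the log2 scale. C1qa had 7.83, 8.24 and 8.77 at 30 mg/kg against 8.46, 8.95 and 9.88 in vehicle mice, and 13 of 15 treated mice were below every vehicle mouse. C1qc was lower by the main test (-0.39), but not with median scaling (adjusted p = 0.058). Ly86, the partner of the lipopolysaccharide-binding receptor Cd180, was lower by 0.72, and Cyba, a subunit of the phagocyte NADPH oxidase, by 0.63. The lysosomal protease Ctsh (-0.66) and the polyamine enzyme Sat1 (-0.59) were among the 20 largest decreases too. Aif1, which encodes the microglial marker Iba1, had 8.24, 8.57 and 9.17 at 30 mg/kg against 8.53, 9.05 and 9.55 in vehicle mice (log2 fold change -0.38 ± 0.08, adjusted p = 0.000344), and 6 of 15 treated mice lay below every vehicle mouse.

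Markers of perivascular macrophages and monocytes were near the floor of the array after treatment. Of 8 measured genes, 5 fell and 3 did not pass. F13a1, the A subunit of coagulation factor XIII, had 6.90, 6.99 and 7.12 at 30 mg/kg and was detected in 2 of 15 mice, against 7.06, 7.29 and 7.69 in vehicle mice with detection in 16 of 17. The scavenger receptor Stab1 was detected in 3 of 15 mice at 30 mg/kg against 16 of 17 vehicle mice, and Ms4a7 in 3 of 15 against 15 of 17. Their log2 fold changes of -0.29, -0.17 and -0.17 therefore compare a measured level with one mostly at background.

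Over the 4 lists together, which hold 79 different genes, 47 were lower and 2 were higher, beside 15.7% lower and 16.3% higher over all genes tested. Of the 46 detected on all 32 arrays, 31 were lower and 1 was higher. Another 8 were detected on 10 arrays or fewer, among them the myeloid transcription factor Spi1 (1 of 15 mice at 30 mg/kg and 4 of 17 vehicle mice) and the protease Ctss (1 of 15 and 4 of 17), whose probes therefore stood near background in both groups. Irf8, a transcription factor of microglia, was detected in 5 of 15 mice at 30 mg/kg and in no vehicle mouse, with medians of 7.03 and 7.00 (adjusted p = 0.133). Sall1, another transcription factor of microglia, had 7.48, 7.63 and 7.77 at 30 mg/kg against 7.44, 7.60 and 7.75 in vehicle mice (log2 fold change 0.04 ± 0.03, adjusted p = 0.294), and passed only with median scaling among the scalings tried (0.08, adjusted p = 0.0218). Among 24 genes raised in disease-associated phagocytes 8 were lower and 2 higher, the tetraspanins Cd63 (-0.46) and Cd9 (-0.40) among the first and lipoprotein lipase, Lpl (0.43), among the second. The call of Lpl was lost in 4 of the 32 fits that left out 1 mouse (adjusted p up to 0.0583, without mouse 8 at 30 mg/kg).

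Among interferon-induced genes more were higher than lower, whereas over all genes tested 16.3% were higher and 15.7% lower. Of 36 measured interferon-induced genes 14 rose, Zbp1 fell by 0.09, a call lost with median scaling (adjusted p = 0.0907), and 21 did not pass, with a median log2 fold change of 0.09. Ifit3, which binds viral RNA complexes, had a log2 signal of 8.32, 9.47 and 9.91 at 30 mg/kg against 8.18, 8.40 and 8.96 in vehicle mice (log2 fold change 0.91 ± 0.12, adjusted p = 1.43e-07), and 12 of 15 treated mice lay above every vehicle mouse. Usp18, the protease that removes ISG15 and restrains interferon receptor signalling, had 7.38, 7.89 and 8.32 at 30 mg/kg against 7.06, 7.20 and 7.58 (log2 fold change 0.59 ± 0.07). Isg15, the ubiquitin-like protein itself, had 7.68, 8.22 and 8.54 at 30 mg/kg against 7.35, 7.65 and 7.88 in vehicle mice (log2 fold change 0.51 ± 0.07). Smaller rises were found for Lgals3bp (0.42), the peptide transporter Tap2 (0.24), the transcription factor Irf9 (0.21), Oasl2 (0.21), Rsad2 (0.19), Igtp (0.18) and Irgm2 (0.16). Oasl2 was detected in 12 of 15 mice at 30 mg/kg and in 2 of 17 vehicle mice.

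The interferon-stimulated response element, bound by interferon regulatory factors, was searched as GAAANNGAAA on both strands of RefSeq promoter windows (assembly GRCm38.p6, 250 bases before to 50 after each start). It was present for 3.57% of the genes tested that had a window. Among the interferon-induced genes called higher 10 had a window and 6 of them held the element, and among the members not called higher 10 of 17 held it, so the letters did not divide the list by response. The stretches of 4 genes that rose are shown because the element stands upstream of the start in each, with matched bases in capitals, overlapping matches joined, and the strand of the gene read 5′ to 3′. A match is a description of sequence only.
Ifit3, chr19:34583353-34583436, plus strand: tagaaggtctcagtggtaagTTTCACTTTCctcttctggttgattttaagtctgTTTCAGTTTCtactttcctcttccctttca
Isg15, chr4:156200855-156200916, minus strand: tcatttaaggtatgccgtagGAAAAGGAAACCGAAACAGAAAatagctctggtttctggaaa
Rsad2, chr12:26456543-26456592, minus strand: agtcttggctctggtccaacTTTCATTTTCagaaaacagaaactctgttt
Igtp, chr11:58199502-58199551, plus strand: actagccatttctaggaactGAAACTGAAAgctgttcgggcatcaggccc
Ifit3 holds 2 separate matches, the first beginning 156 bases before the start, and Isg15 holds 3 overlapping matches beginning 78 bases before the start. GAGGAAGT, the core of the site of the myeloid factor PU.1, was present for 3.35% of the genes tested that had a window, and among the 15 genes with a window that were lower by at least 1.5-fold it was found in Selenop.

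Ccl12, a ligand of the monocyte receptor Ccr2, had the largest rise of all called genes. It had 7.54, 8.84 and 9.92 at 30 mg/kg against 7.18, 7.44 and 9.91 in vehicle mice (2.39-fold, log2 fold change 1.26 ± 0.19, adjusted p = 8.4e-07). The overlap rested on few mice, since the second highest vehicle mouse was at 8.16 and the second lowest treated mouse at 8.30. Without vehicle mouse 6, the highest, the log2 fold change was 1.40. Cxcl10, a ligand of the chemokine receptor Cxcr3, had 7.11, 7.75 and 8.25 at 30 mg/kg against 6.90, 7.10 and 7.64 in vehicle mice, with detection in 15 of 15 against 10 of 17 (log2 fold change 0.58 ± 0.08, adjusted p = 1.07e-07). Gpr84, a receptor for medium-chain fatty acids that activated microglia express, had 7.41, 7.93 and 8.23 at 30 mg/kg against 6.83, 7.21 and 8.13 (log2 fold change 0.67 ± 0.08, adjusted p = 1.1e-08). Mouse 12 at 30 mg/kg was the lowest of its group for Ccl12, Ifit3 and Gpr84, and vehicle mouse 6 was the highest of its group for Ccl12, Gpr84, Usp18, Isg15 and Cxcl10.

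Chemokine and cytokine genes had no common direction. The shares over all genes tested were 16.3% higher and 15.7% lower. Of 22 measured 6 were higher, 4 were lower and 12 did not pass, with a median log2 fold change of -0.02, and with the run as a block 6 were higher and 6 lower. The neuronal chemokine Cx3cl1, ligand of Cx3cr1, had 10.87, 11.52 and 11.96 at 30 mg/kg against 10.61, 10.96 and 11.32 in vehicle mice (log2 fold change 0.52 ± 0.07), so that ligand and receptor differed in opposite directions. Cxcl14 (-0.42), Ccl9 (-0.37), Tgfb1 (-0.18) and Il1b (-0.09) were lower. Of 18 antigen presentation genes 5 were lower and Tap2 was higher, but with median scaling 4 were lower and 4 higher. The class II gene H2-Ab1 had 6.99, 7.56 and 8.61 in mice at 30 mg/kg against 7.16, 8.09 and 8.90 in vehicle mice (log2 fold change -0.56 ± 0.16, adjusted p = 0.00585), and Cd74, the invariant chain, was lower by 0.39. The other kept probes of H2-Ab1 gave -0.02 to -0.20.

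Both doses were tested against each other to ask which of these changes differed with dose. Between 30 and 3 mg/kg 91 of 9893 genes were higher (0.92%) and 124 were lower (1.25%). This count depended on single mice, being 135 without mouse 7 and 358 without mouse 1 of the 30 mg/kg group. Leaving out a mouse at 3 mg/kg was not tried. With the run as a block 170 genes differed between the doses. The values of single genes and lists by dose, given below, were not recomputed in this way. The interferon-induced genes had 14 of 36 members higher at 30 than at 3 mg/kg, against the background of 0.92%. In Ifit3 the median was 8.40 on vehicle, 8.51 after 3 mg/kg and 9.47 after 30 mg/kg, a difference between the doses of 0.89 (adjusted p = 1.42e-06). Ccl12 differed by 1.51 (adjusted p = 1.29e-07), Gpr84 by 0.71 (adjusted p = 2.29e-08), Cxcl10 by 0.64 and Isg15 by 0.58 between 30 and 3 mg/kg. For these 5 genes the log2 fold change of 3 mg/kg over the same vehicle mice was 0.02, -0.25, -0.04, -0.06 and -0.07 in the order named, and none of these passed.

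Phagocyte genes are described in 2 sets by dose, with no test that divides them. One set was lower at 30 than at 3 mg/kg. Fcgr3 differed by -0.62 (adjusted p = 1.29e-07), Trem2 by -0.61, Lyz1 by -0.94, Crybb1 by -0.50, Mrc1 by -0.42 and Laptm5, a lysosomal transmembrane protein, by -0.51 (adjusted p = 0.00112). Over vehicle, 30 mg/kg gave -1.17 for Fcgr3, -1.06 for Trem2 and -1.51 for Lyz1, so their means at 3 mg/kg also lay below vehicle. For Crybb1 (-0.64), Mrc1 (-0.47) and Laptm5 (-0.54) the difference from vehicle was closer to that between the doses. Of the homeostatic microglia genes 9 of 24 were lower at the higher dose (background 1.25%), as were all 5 perivascular macrophage genes that fell against vehicle. In a second set the doses gave close values. The log2 fold change over vehicle of Tyrobp was -0.50 at the lower dose and -0.68 at the higher dose, that of Cyba -0.58 and -0.63, that of Aif1 -0.44 and -0.38 and that of Sat1 -0.63 and -0.59. The difference between doses did not pass for any of these 4 (adjusted p 0.345 to 0.86). Cd52, a surface glycoprotein of leukocytes, did not pass against vehicle at 30 mg/kg (log2 fold change 0.15, adjusted p = 0.379) and was lower at 3 mg/kg (-0.47), so that it was higher by 0.63 at 30 than at 3 mg/kg (adjusted p = 0.0015). Both doses were set against the same vehicle mice.

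**Figure D3:**
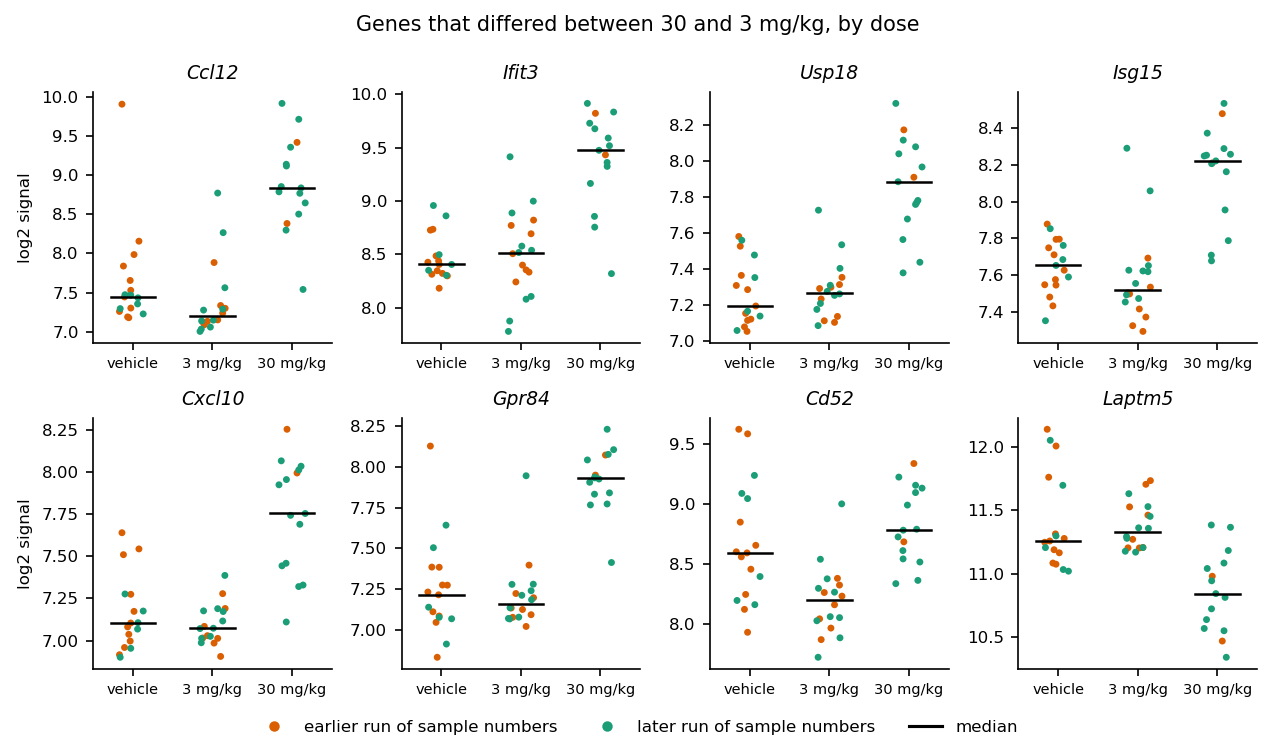
Log2 signal of 8 genes that differed between the doses, in each epileptic mouse (points) with group medians (bars), for vehicle, 3 mg/kg and 30 mg/kg, coloured by run of sample numbers. The medians of Ccl12, Ifit3, Usp18, Isg15, Cxcl10 and Gpr84 stand close together in vehicle mice and at 3 mg/kg and higher at 30 mg/kg, whereas Laptm5 is lower at 30 mg/kg.

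Of 24 astrocyte genes of the resting state 11 were lower and 13 did not pass (median log2 fold change -0.15), beside 15.7% lower over all genes tested. With the run as a block 8 were lower, and with median scaling 7. Ppp1r3c, which directs glycogen synthesis, had 10.99, 11.47 and 12.27 at 30 mg/kg against 11.67, 12.11 and 12.69 in vehicle mice (log2 fold change -0.54 ± 0.11, adjusted p = 0.000139). The acyl-CoA synthetase Acsbg1 was lower by 0.36, with 14 of 15 treated mice below every vehicle mouse, and the folate enzyme Aldh1l1 was lower by 0.31 (0.20 with the run as a block). The water channel Aqp4 was lower by the main test (-0.40, adjusted p = 0.0184), but not with the run as a block (adjusted p = 0.129), and its log2 fold change was -0.02 in the later run and -0.71 in the earlier run. Gfap, the intermediate filament of reactive astrocytes, had 8.65, 9.75 and 10.72 at 30 mg/kg against 9.19, 10.02 and 11.71 in vehicle mice, with 7.83, 7.92 and 8.08 in naive mice. The difference of -0.54 ± 0.20 for Gfap passed at an adjusted p of 0.0333, but not with the run as a block (adjusted p = 0.0982), with median scaling (adjusted p = 0.0951) or in 12 of the 32 fits that left out 1 mouse (adjusted p up to 0.073, without mouse 14 at 30 mg/kg), and the later run alone gave -0.05 against -1.34 in the earlier run. Of 30 reactive astrocyte genes Gfap and S100a6 (-0.39) were lower and Cxcl10 was higher, and S100a6 lost its call without mouse 14 at 30 mg/kg (adjusted p = 0.0539) and with median scaling (adjusted p = 0.089). Among 10 S100 calcium-binding proteins 4 were lower, led by S100a16 (-0.54 ± 0.08).

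The neuronal lists differed in how many members passed, and over all genes tested 16.3% were higher and 15.7% lower. Of 37 genes of synaptic vesicles and their release 20 rose, 3 fell and 14 did not pass, with a median log2 fold change of 0.15. Nsf, the ATPase that takes apart SNARE complexes after fusion, had 12.57, 12.88 and 13.10 at 30 mg/kg against 12.13, 12.30 and 12.54 in vehicle mice (log2 fold change 0.56 ± 0.05, adjusted p = 3.72e-12). It was the largest of 4 genes in which every mouse at 30 mg/kg lay above every vehicle mouse (0.0404% of the genes tested), the others being the splicing kinase Srpk1 (0.27), the splicing helicase Dhx15 (0.26) and Elp2 (0.24), a subunit of the tRNA-modifying Elongator complex. Rab3a, a vesicle GTPase, had 12.32, 12.46 and 12.77 at 30 mg/kg against 11.80, 12.08 and 12.36 (log2 fold change 0.44 ± 0.05). Slc32a1, the vesicular GABA transporter, had 10.95, 11.26 and 11.42 at 30 mg/kg against 10.46, 10.66 and 11.10 (log2 fold change 0.47 ± 0.06). Synaptophysin, Syp (0.26), and the calcium sensor Syt1 (0.39) were higher, and Rph3a (-0.21), Syt5 (-0.19) and Unc13c (-0.13) were lower, of which only Unc13c kept its call with the run as a block and with median scaling. At 3 mg/kg the median of the list against the same vehicle mice was 0.22.

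Of 30 genes of calcium/calmodulin-dependent kinases and signalling 14 were higher and 3 lower, with opposite directions in the subunits of CaMKII. Camk2b had 12.70, 13.19 and 13.73 at 30 mg/kg against 12.59, 12.74 and 13.14 in vehicle mice (log2 fold change 0.41 ± 0.07), whereas Camk2a had 12.51, 12.82 and 13.07 against 12.05, 13.15 and 13.33 (-0.30 ± 0.09). Pyramidal neuron genes had 8 of 23 members higher, including Fibcd1 (0.60), the transcription factor Pou3f1 (0.53) and Etv1 (0.32). Fibcd1 had 9.88, 10.91 and 11.71 at 30 mg/kg against 9.20, 10.35 and 10.87 in vehicle mice, and naive mice had 11.93 to 12.17, above every epileptic mouse of both groups. Its log2 fold change was 0.28 in the later run and 1.19 in the earlier run. Among channels 12 of 47 were higher and Kcnh3 was lower (-0.16, a call lost with the run as a block and with median scaling), the higher ones led by the sodium channel beta subunits Scn4b (0.58 ± 0.11), Scn2b (0.42) and Scn3b (0.34). Of 18 genes of ionotropic glutamate receptors and their partners 4 were higher, 3 lower and 11 did not pass (median log2 fold change 0.01), and with the run as a block 7 were higher and 1 lower. The AMPA receptor subunits Gria2 (0.32 ± 0.06) and Gria1 (0.25), the auxiliary subunit Cacng3 (0.30) and the scaffold Dlg3 (0.33) were higher, and Gria1 lost its call in 2 of the 32 fits that left out 1 mouse (adjusted p up to 0.057, without mouse 8 at 30 mg/kg). The scaffolds Dlg2 (-0.25) and Dlg4 (-0.18) and the auxiliary protein Cnih2 (-0.17) were lower, of which Dlg2 kept its call with the run as a block and with median scaling and the other 2 lost it in both. Dentate granule cell genes had 4 of 15 members higher and 11 that did not pass (2 higher with the run as a block). Calls in either direction covered 34.8% of the pyramidal list, 27.7% of the channel list, 38.9% of the glutamate receptor list and 26.7% of the dentate list. Over all genes tested this share was 32%, so with both directions counted together these 4 lists lay near the background. By direction, all calls of the pyramidal and dentate lists were higher, and all but 1 of the channel list, beside 16.3% of all genes. With the run as a block 18 channel and 7 pyramidal genes were higher (15.7% of all genes). With median scaling 15 and 12 were higher (20.4% of all genes). Of 29 neuropeptides and activity-linked factors 2 were higher, 2 were lower and 25 did not pass, with a median of -0.05.

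Of 17 GABAergic interneuron genes 6 were higher and parvalbumin, Pvalb, was lower (-0.16), beside 16.3% higher and 15.7% lower over all genes tested. Pvalb lost its call without mouse 3 at 30 mg/kg (adjusted p = 0.0509), with the run as a block (adjusted p = 0.135) and with median scaling. The transcription factor Dlx1 (0.24) and the potassium channel Kcnc1 (0.24) were among the higher genes. Gad1, which synthesizes GABA, was higher by 0.37 (adjusted p = 0.00198) and somatostatin, Sst, by 0.30 (adjusted p = 0.00735). Both lost the call with the run as a block, where the values were 0.19 (adjusted p = 0.0836) for Gad1 and 0.12 (adjusted p = 0.26) for Sst. Of 37 genes of tubulin, microtubules and motors 17 were higher and 5 lower (14 and 2 with median scaling). Kif1a, the kinesin that carries synaptic vesicle precursors, had 8.51, 8.90 and 9.11 at 30 mg/kg against 8.93, 9.37 and 9.78 in vehicle mice (log2 fold change -0.52 ± 0.07).

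Ribosomal protein and respiratory chain genes were more often lower than higher. The background over all genes tested was 16.3% higher and 15.7% lower. Of 56 cytosolic ribosomal protein genes 39 fell and 17 did not pass (median log2 fold change -0.20), of 68 mitochondrial ribosomal protein genes 36 fell and Mrps2 rose (median -0.15), and of 70 respiratory chain genes 32 fell and 4 rose (median -0.11). Rpl19 had 10.61, 11.04 and 11.45 at 30 mg/kg against 11.11, 11.52 and 11.79 in vehicle mice (log2 fold change -0.50 ± 0.07), and Rps9 had 12.06, 12.39 and 12.64 against 12.40, 12.77 and 12.91 (-0.40 ± 0.05). Mrpl14 (-0.50), the cytochrome oxidase subunit Cox7a1 (-0.52), the complex I subunit Ndufa7 (-0.40) and the proteasome subunit Psma7 (-0.43) had differences of like size. Translation factors went both ways, with 10 of 46 higher, among them the initiation factor subunit Eif3c (0.30), 11 lower, among them the elongation factor subunit Eef1d (-0.25), and 25 that did not pass (median 0.03). The other kept probes of Eef1d, near background, gave 0.02 to 0.04. Ribosomal protein genes have many processed pseudogenes, and probes that also bind those were not set apart. With median scaling 38, 26 and 28 members of the cytosolic ribosomal, mitochondrial ribosomal and respiratory chain lists were lower, and with the run as a block 46, 38 and 41. At 3 mg/kg the medians of these 3 lists against the same vehicle mice were -0.26, -0.24 and -0.17, and 2 of their genes were called between the doses, 1 in each direction.

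**Figure D4:**
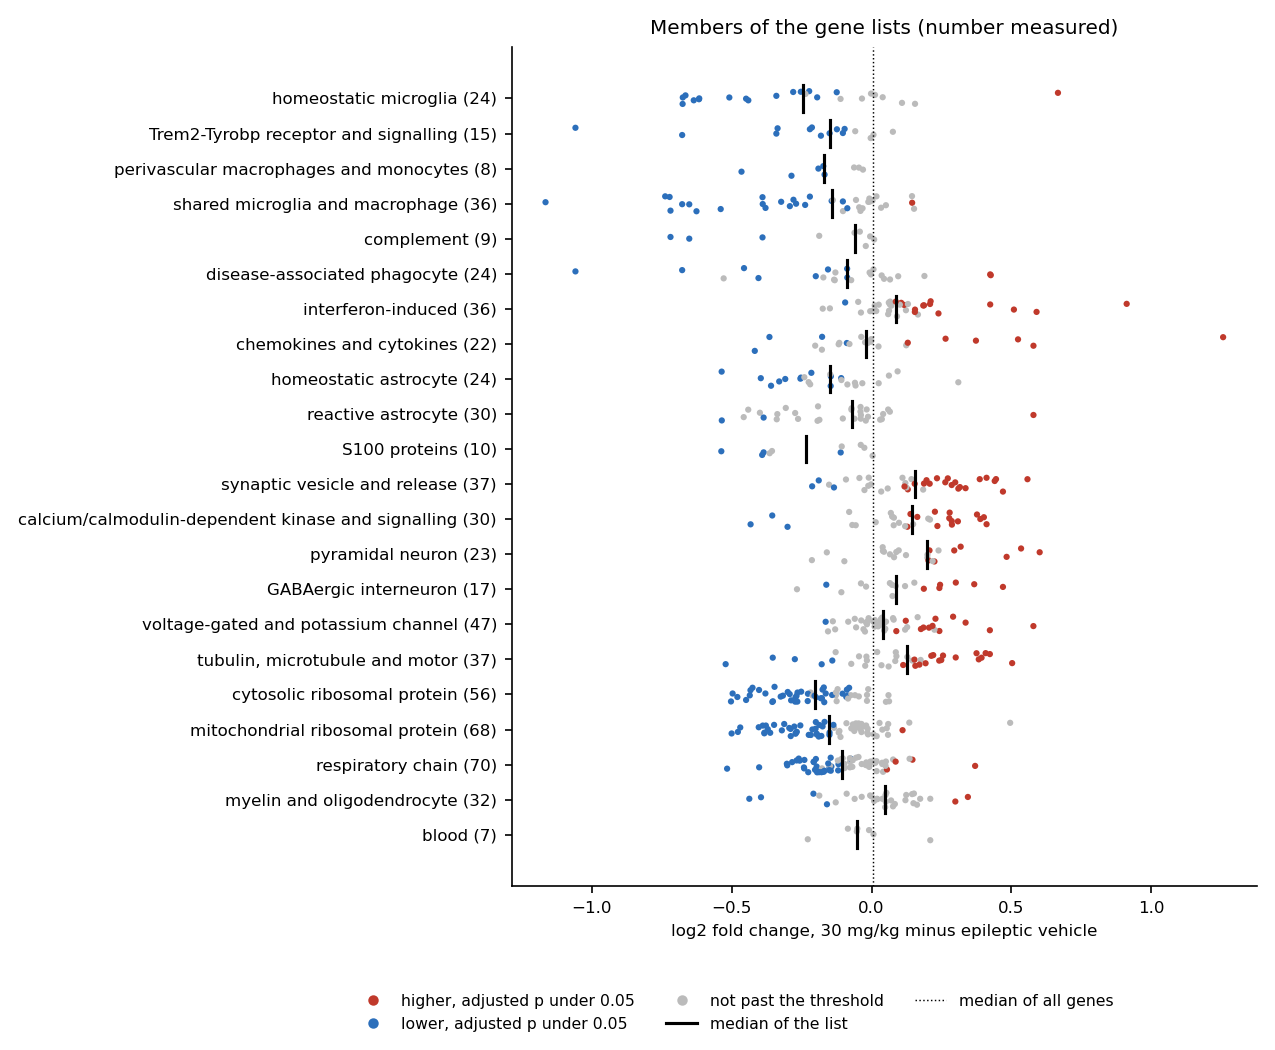
Log2 fold change (30 mg/kg minus epileptic vehicle) of the measured members of 22 gene lists, 1 point per gene, red where higher and blue where lower at an adjusted p under 0.05, with the median of each list as a bar and the median of all genes as a dotted line. The medians of the phagocyte lists, of both ribosomal protein lists and of the respiratory chain lie below 0, and those of the interferon-induced and synaptic vesicle lists above 0, while many members of each list did not pass.

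Of 32 genes of myelin and oligodendrocytes 4 were lower and 2 higher (3 and 6 with median scaling), beside 15.7% lower and 16.3% higher over all genes tested. Among 15 genes of oligodendrocyte precursors 5 were lower and 10 did not pass, and with median scaling 2 were lower. Pdgfra, their growth factor receptor and a kinase related to Csf1R, had 7.82, 8.12 and 8.33 at 30 mg/kg against 8.02, 8.35 and 8.60 in vehicle mice (log2 fold change -0.24 ± 0.05, adjusted p = 8.52e-05). Pdgfra was 0.10 above the same vehicle mice at 3 mg/kg, which did not pass, and lower by 0.33 at 30 than at 3 mg/kg (adjusted p = 1.42e-06). Of 7 blood genes 0 passed in limma, with 2 at an unadjusted p under 0.05, and with median scaling 1 was higher and 1 lower. Of 40 collagen and fibroblast matrix genes 3 were lower, Sparc (-0.62), Igfbp6 (-0.49) and Fbln2 (-0.16). Sparc, which microglia also express, was the only 1 of these called with the run as a block. The secreted genes Selenop (-0.76 ± 0.11), a selenium carrier, and Rnase4 (-0.68 ± 0.09) were among the 20 largest decreases, and a second probe of each, near background, gave -0.09 for Selenop and 0.0063 for Rnase4. The elastase Cela1 was another of these 20 (-0.65 ± 0.12).

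The 20 genes with the largest rises and the 20 with the largest decreases were chosen over the mice of both runs together, so their values within a run describe them and are no separate check. Of the 20 decreases 20 were called with the run as a block, 18 within the later run and 12 within the earlier run, which held 2 treated mice. Fcgr3 differed by -1.17 in the later run and -1.31 in the earlier run, and Trem2 by -1.22 and -1.02. Among the 20 rises 19 were called with the run as a block. The exception was Fam131a, with a log2 fold change of 0.62 (adjusted p = 0.00119) that became 0.22 (adjusted p = 0.0677). Prepl, a serine hydrolase, kept its call, but its log2 fold change of 0.70 became 0.36, and Ywhaz, a 14-3-3 protein, had 0.57 and 0.33. Rapgefl1 was higher by 0.79 ± 0.22 with its brightest probe and a second probe gave -0.10. Vehicle mice 9, 13, 15 and 16 lay at 7.695, 8.584, 8.642 and 8.493 for the brightest probe, and every other vehicle mouse at 9.403 or more. The difference without these mice together was not computed. The 20 rises also held the splicing factor Wbp11 (0.55), the transcription factor Bcl11a (0.54), the kelch protein Enc1 (0.53), the phosphatase Ppm1e (0.52), the ubiquitin ligase Trim32 (0.52) and the predicted gene Gm5643 (0.58). In each of these 6 at least 10 of 15 mice at 30 mg/kg lay above every vehicle mouse. They were chosen as the largest rises in the same mice, and the share of all genes with such a count was not computed. A test of the interaction of run and treatment passed for 1 of 9893 genes (0.0101%), with 297 (3%) at an unadjusted p under 0.05.

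**Figure D5:**
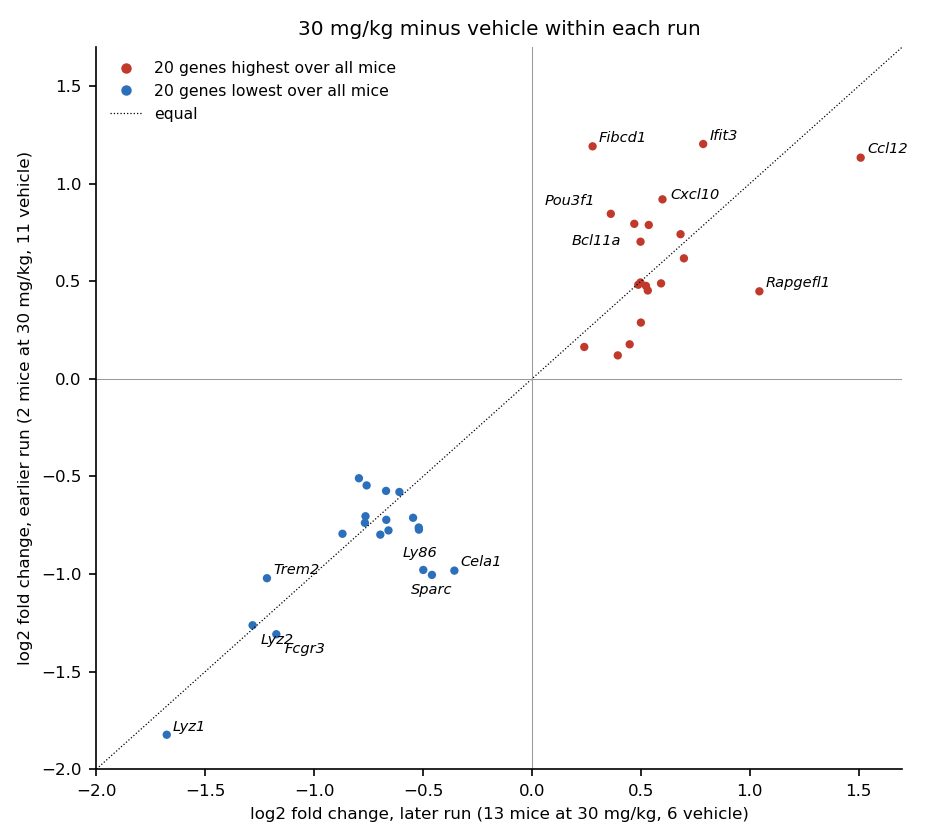
Log2 fold change of 30 mg/kg minus vehicle in the later run (horizontal axis, 13 mice at 30 mg/kg and 6 vehicle mice) and in the earlier run (vertical axis, 2 and 11 mice), for the 20 genes highest and the 20 lowest over all mice. The genes were chosen over both runs together, and Fibcd1, Cela1, Rapgefl1 and Sparc lie away from the line of equal values.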

How the data were processed

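Illumina MouseRef-8 v2 arrays held hippocampal RNA of 56 mice, 1 array each, of which 15 at 30 mg/kg and 17 epileptic vehicle arrays are compared here. The authors deposited the signal intensity of each probe as exported from GenomeStudio 2011.1, neither background-subtracted nor normalized, and a detection p-value for each intensity. They also deposited log2 values made with lumi by quantile normalization, used here as an alternative. Groups came from the sample titles. Here intensities were log2 transformed and quantile normalized over all 56 arrays. Probes were kept where detection had p under 0.05 in 6 or more arrays, which left 14058 of 25697, and the brightest kept probe stood for each of 9893 genes. Probe names came from the platform annotation, updated through RefSeq (GRCm38.p6).

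The 4 groups were fitted in 1 limma model (limma 3.58.1, R 4.3.3) without covariates, and genes with a Benjamini-Hochberg adjusted p under 0.05 were called. The comparison, the gene lists and the genes named were chosen with earlier results of these data known. Named genes were the 20 highest and 20 lowest called genes, the genes the study names that had a kept probe, up to 4 members with the smallest p of each list described, genes without overlap between groups, the genes leading between doses or in the fits with and without the run block, and further members of the lists described. Lists are given by counts and medians without a test. Each mouse gave 1 array, and the number of mice limits the precision. On simulated data with 9893 genes for 30 mg/kg against vehicle, 38 of 50 genes changed by 0.2 (log2) were recovered, 47 of 50 at 0.4 and 50 of 50 at 0.8. In the same data 12 unchanged genes were called. The simulation drew normal noise for each gene separately, had no effect of run and changed far fewer genes than were called here. Its rates therefore need not hold for the real comparison. The alternatives were another background correction, other scaling, filters, probe summaries, array weights, blocks, subsets of mice and leaving out each mouse at 30 mg/kg or on epileptic vehicle.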

Additional observations from a re-analysis of the deposited data

Results flagged for a closer look

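In the 6 naive mice Fcgr3 and Crybb1 had 1 mouse far from the others. The gap to the nearest mouse was 0.716 of the whole range of the group for Fcgr3 (8.13 to 8.33) and 0.64 for Crybb1 (7.29 to 7.53). Both exceed the critical value of Dixon for 6 samples. The 20 highest and 20 lowest genes were examined in this way, and chance alone passes such a limit in about 1 of 20 groups.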

How the results depend on the processing

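The count of genes changed by at least 1.5-fold, 28 in all, became 49 with normexp background correction. Median scaling gave 818 lower genes in place of 1549, 3 genes without overlap in place of 8, and 101 genes different between 30 and 3 mg/kg in place of 215. That last count was 368 with array quality weights and 67 with each set of 8 numbers taken as a block. The later run alone gave 802 higher and 896 lower genes, 45 between doses and 88 genes without overlap, and the earlier run alone gave 96 higher, 63 lower and 6 between doses, in both cases from fewer mice. In the earlier run, which had 2 mice at 30 mg/kg, Kcnh3 (0.0747), Pvalb (0.0771) and Dlg4 (0.00919) changed sign. The cause of the other changes was not tested. Leaving out 1 mouse at a time, at 30 mg/kg or on epileptic vehicle, gave 1450 to 1679 higher genes and 1416 to 1616 lower genes. It also gave 25 to 33 genes changed by at least 1.5-fold and 135 to 358 genes different between doses. The mice at 3 mg/kg were not left out in turn, so the range between doses does not cover them. The replicate numbers, which follow the order of the sample numbers within each group, were treated as names only. The correlation of deviations between same-numbered mice ran from -0.24 to 0.22 over 15 pairs, with 4 pairs over 0.1. So few pairs cannot show that the numbers carry no meaning. With them as a replicate block 1752 genes were higher, 1597 lower, 28 changed by at least 1.5-fold and 250 different between doses. Among the genes named, 17 lost the call with the run as a block and 14 with median scaling, which also brought in Sall1, all without a change of sign. Genes near background, such as Crybb1 and F13a1 after treatment, have differences limited by the floor of the array.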

Other observations

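Of 18 circadian clock genes 7 were higher at 30 mg/kg than in vehicle mice and Rorb was lower by 0.09. The call of Rorb was lost with the run as a block and with median scaling (adjusted p = 0.263). It was also lost in 13 of 32 fits that left out 1 mouse (adjusted p up to 0.0755, without mouse 13 at 30 mg/kg). The median log2 fold change of the list was 0.13. Over all genes tested 16.3% were higher and 15.7% lower, the background for this list and those below. Per2 was higher by 0.38 ± 0.11. With the run as a block 4 were higher and with median scaling 11, and the hour at which tissue was taken was not in the labels used here. Lysosomal genes had no common direction, with 9 higher and 13 lower of 47 (9 and 6 with median scaling), and the v-ATPase split likewise, with Atp6v1b2 (0.32) higher and Atp6v0b (-0.33) and Atp6v1f (-0.32) lower. Of 25 immediate early genes Plk2 and Per1 were higher. Per1, also a clock gene, was higher by 0.19 (adjusted p = 0.0194), a call lost with the run as a block (0.11, adjusted p = 0.204). Plk2 had 8.92, 9.44 and 9.97 at 30 mg/kg against 8.65, 9.00 and 9.40 in vehicle mice (log2 fold change 0.44 ± 0.10). Among replication genes Mcm5 (0.32) and Mcm4 (0.22) were higher. Among metallothioneins and iron genes the iron exporter Slc40a1 was lower by 0.41 and Mt3 by 0.39.

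The perineuronal net link protein Hapln4 was higher by 0.52 and the protease inhibitor Timp4 lower by 0.47. Apoc1, an apolipoprotein, was lower by 0.52. Of 20 pericyte and smooth muscle genes 6 were lower and 2 higher, and with the run as a block 2 were lower and 1 higher, with Rgs5 lower by 0.51 (adjusted p = 0.0033), a call lost with the run as a block (log2 fold change -0.25, adjusted p = 0.121).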
